A study of Mus musculus with 2 samples.

Results

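CTCF and cohesin shape chromosomes into loops, and the 10 genes described here encode the main parts of that machinery. They are Ctcf, the core ring genes Smc1a, Smc3 and Rad21, the ring-bound Stag1 and Stag2, the loader gene Nipbl, and the regulators Wapl, Pds5a and Pds5b. They were taken as a fixed list of gene names and make up 10 of 21911 protein-coding genes in GENCODE M21 on mm10. All 10 were found in that annotation by symbol. For each gene a window was set from 50 kb before to 50 kb after the gene body, and the peaks and hotspots of both libraries in it were counted. A promoter peak had its centre within 1 kb of any annotated start site of the gene, and a distal peak lay outside the promoters of all protein-coding genes.

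Cohesin is a ring of SMC1A, SMC3 and RAD21 that is loaded on DNA by NIPBL, extrudes loops and holds sister chromatids together. CTCF binds a long DNA motif and halts the ring there when the motif points towards it, so that motif pairs lie at loop anchors. WAPL and the PDS5 proteins take the ring off DNA, and the ring needs either STAG1 or STAG2, which are alternative subunits. Cells that divide need these proteins throughout the body, and mutations in several of the genes cause developmental disorders with effects on the nervous system.

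The data are DNase-seq, in which the enzyme DNase I cuts DNA that is open in nuclei. The cells were MN1, an immortalized mouse line of strain B6NCrl. The series has 1 group with 2 biological replicates, 1 library each, and no treatment, genotype contrast or second cell type. The labels do not give the tissue of origin, sex or age, so the number of X chromosomes is unknown. As a check of the line, promoter peaks were found in both libraries at 7 of 7 neuronal genes and 5 of 8 motor neuron genes, with none in either library at Mnx1, Slc5a7 and Olig2. The share over all protein-coding genes was 58.9%, so the motor neuron count was near it. Of 7 genes of other cell types, Gfap alone had a promoter peak in both, while hotspots without peaks covered the Cd3e promoter in each library. Replicate 1 held 170286 peaks and replicate 2 held 162691 on the main chromosomes. Each peak carries a score from 1 to 150 made by the authors, given here as a percentile within its own library, with 100 the highest. Read depth is unknown. Scores of shared peaks are given for both libraries. Counts and densities of shared peaks use the list of replicate 1 where replicate 2 is not named.

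The promoters of 5 members are printed first, because letters of common promoter factors recur in them. RefSeq (GRCm38.p6, the assembly of mm10) had a promoter sequence for 7 of the 10 members, and none in the table for Rad21, Stag2 and Nipbl. Each line starts 250 bases before the RefSeq start site on the plus strand, and runs at most 30 bases into an exon. Capitals mark matches, on either strand, to the promoter motifs SP/KLF (GGGCGG), NFY (CCAAT), YY1 (ATGGCGG), NRF1 (given by name) and, in Wapl, ZNF143 (by name). Matches were counted in the full RefSeq windows, 250 bases before to 50 after the start site, so 2 matches of Pds5b lie past its printed stretch. The lines cover chr8:105636288-105636567 for Ctcf, chr19:53600146-53600425 for Smc3, chr9:100643198-100643477 for Stag1, chr14:34673678-34673957 for Wapl and chr5:150673577-150673768 for Pds5b.
Ctcf: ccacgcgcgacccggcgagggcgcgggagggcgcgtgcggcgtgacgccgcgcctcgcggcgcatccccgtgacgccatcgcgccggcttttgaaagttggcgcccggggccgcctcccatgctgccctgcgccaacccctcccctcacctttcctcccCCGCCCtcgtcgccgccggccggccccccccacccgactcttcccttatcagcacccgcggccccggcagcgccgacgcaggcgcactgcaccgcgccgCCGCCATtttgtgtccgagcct
Smc3: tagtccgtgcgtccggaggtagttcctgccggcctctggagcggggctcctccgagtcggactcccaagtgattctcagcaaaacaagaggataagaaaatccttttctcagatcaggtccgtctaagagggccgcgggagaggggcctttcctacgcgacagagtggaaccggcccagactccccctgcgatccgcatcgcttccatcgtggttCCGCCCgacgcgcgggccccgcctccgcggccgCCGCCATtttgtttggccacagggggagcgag
Stag1: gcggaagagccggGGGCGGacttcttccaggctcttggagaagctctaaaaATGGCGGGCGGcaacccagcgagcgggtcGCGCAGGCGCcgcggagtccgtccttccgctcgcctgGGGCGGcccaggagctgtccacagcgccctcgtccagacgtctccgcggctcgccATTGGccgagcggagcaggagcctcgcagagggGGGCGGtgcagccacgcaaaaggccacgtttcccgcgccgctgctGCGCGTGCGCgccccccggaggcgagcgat
Wapl: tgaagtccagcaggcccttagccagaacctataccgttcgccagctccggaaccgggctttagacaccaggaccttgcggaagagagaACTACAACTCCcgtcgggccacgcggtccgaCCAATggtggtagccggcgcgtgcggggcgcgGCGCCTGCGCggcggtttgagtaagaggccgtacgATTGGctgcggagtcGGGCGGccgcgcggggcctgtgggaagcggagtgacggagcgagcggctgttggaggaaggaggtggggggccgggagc
Pds5b: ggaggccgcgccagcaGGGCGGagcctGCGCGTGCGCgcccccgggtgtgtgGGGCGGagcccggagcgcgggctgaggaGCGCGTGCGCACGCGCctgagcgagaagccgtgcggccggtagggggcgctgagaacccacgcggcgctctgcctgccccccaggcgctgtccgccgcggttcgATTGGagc
SP/KLF letters were present in 7 of 7 member promoters, against 35.7% of all 32851 RefSeq promoters of the same length. The YY1 letters stood in Ctcf, Smc3 and Stag1, against 4.05% of all promoters, and the NRF1 letters in Stag1, Wapl and Pds5b, against 4.60%. In Ctcf and Smc3 the YY1 letters read in reverse close to the start site, beginning 8 bases after it in Ctcf and 2 bases before it in Smc3. In Pds5b 2 NRF1 matches overlap, and in Stag1 the YY1 match overlaps an SP/KLF match. NFY letters were in 4 of 7 (Smc1a, Stag1, Wapl and Pds5b; 37.4% of all promoters). The ZNF143 letters, in 1.98% of all promoters, were in Wapl. No match was found in the 7 windows to the core of the CTCF motif, ETS (CCGGAAG), CRE (TGACGTCA), the E-box CACGTG, AP-1 (TGANTCA) or a TATA box (TATAAA), which stood in 2.43%, 8.86%, 1.79%, 7.15%, 7.81% and 13.6% of all promoters. The member promoters were rich in G and C, from 58.3% in Smc1a to 80.3% in Pds5a against a median of 52.7% over all. The part of this base composition in the motif shares was not tested.

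Every member had an open promoter in both libraries. A promoter peak was present in both at 10 of 10 members, where 58.9% of all protein-coding genes had one, and a promoter hotspot likewise at 10 of 10 (59.4%). Most members had several such peaks: 10 of 10 had 2 or more promoter peaks shared by the libraries (44.5% of all genes). In 8 of 10 there were 3 or more (26.8%), though at Pds5b 1 of these lay 83.0 kb inside the gene. These counts take in all annotated start sites of a gene and were not adjusted for their number. The median was 3.5 shared promoter peaks per member, against 2 among genes with a promoter peak in both libraries. The strongest shared promoter peak lay at percentile 95 or higher in both libraries for 8 of 10 members, against 46.7% of the 12847 genes with a shared promoter peak. Smc1a and Stag2, both on chromosome X, were the other 2. The best peaks of all 10 members lay inside a hotspot whose −log10 q was at its cap of 100 in both libraries. Those hotspots were 757 to 2908 bp wide. Of all hotspots, 42.9% in replicate 1 and 40.8% in replicate 2 were at the cap. The share for the best promoter peaks of all genes was not taken. Distances were taken from the annotated start site nearest to the best peak of replicate 1. In 19 of 20 cases, counting each library, the centre of the best peak lay upstream of it, at most 347 bp away. From its own nearest start site the replicate 2 peak of Pds5a lay 42 bp downstream. The 2 libraries of a gene are not separate cases, and the share over all genes was not taken.

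**Figure D1:**
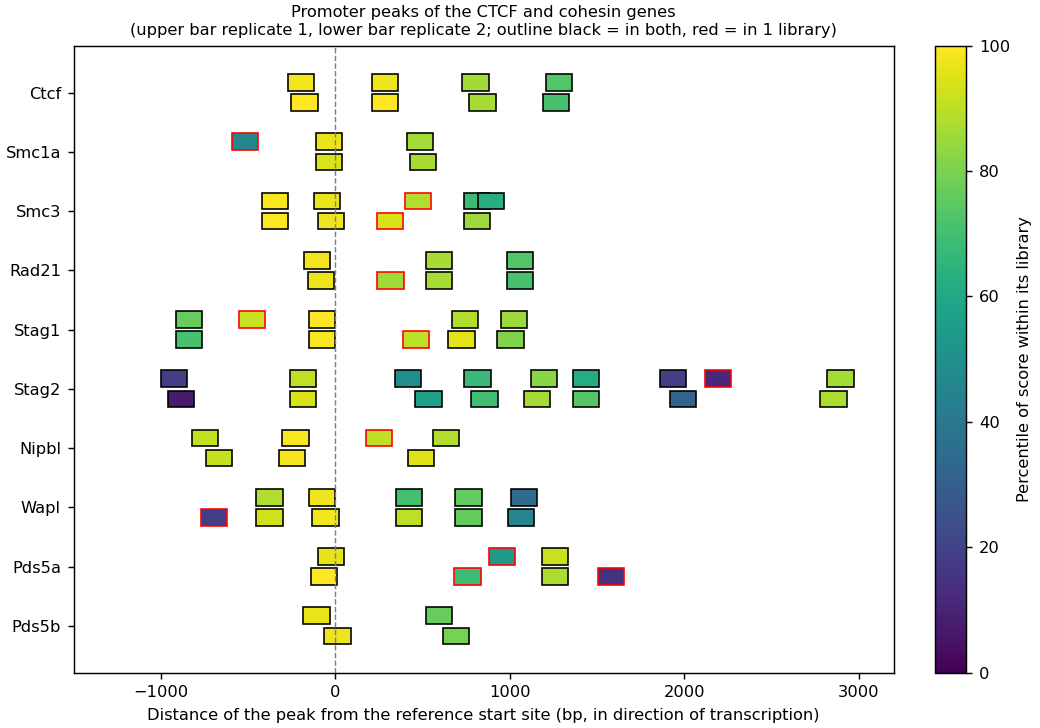
Promoter peaks of the 10 genes by distance in bp from the start site nearest to the best shared peak, in the direction of transcription. Bars are peaks of 150 bp (replicate 1 above, replicate 2 below), coloured by percentile of score, with a black outline where both libraries had the peak and a red one where 1 did; peaks at start sites further inside Smc3, Stag1 and Pds5b lie beyond the axis. The brightest bars sit just before the start for most genes, and Stag2 shows a row of weaker peaks over about 4 kb.

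Ctcf (ENSMUSG00000005698, chromosome 8, 105636568 to 105682922, plus strand) encodes the zinc finger protein that marks loop anchors. Its best promoter peak, 197 bp before the first start site in replicate 1 and 177 bp before it in replicate 2, had scores of 139 and 147 (percentiles 98.1 and 99.9). Another peak 283 bp inside the gene had scores of 137 and 145 at the same position in both libraries. It lay just before a further annotated start site of Ctcf. Weaker ones followed at 803 bp in replicate 1 (score 100) and 843 bp in replicate 2 (score 97), and at 1283 and 1263 bp (scores 75 and 63). Thus 4 promoter peaks were found in each library and each had a partner in the other. A start site of a transcript without coding annotation, 39.4 kb further inside, had no peak in either. The start of Agrp, which encodes a neuropeptide of appetite, lies 948 bp from the best Ctcf peak, on the opposite strand.

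The ring genes each had 1 place with shared promoter peaks. Smc3 (chromosome 19, 53600398 to 53645833, plus strand) had its best peak 347 bp before the start site, at the same position in both libraries, with scores of 143 and 144 (percentiles 99.1 and 99.5). A further peak nearer to the start, centred 47 bp before it in replicate 1 and 27 bp before it in replicate 2, had scores of 134 and 135. At a start site 43.0 kb inside the gene, replicate 1 alone had 2 weak peaks (scores 28 and 32). Smc1a (chromosome X, 152016428 to 152062694, plus strand) had its best peak 37 bp before the start in both libraries, with scores of 133 and 123 (percentiles 96.5 and 94.35). The start of Ribc1, a gene on the opposite strand, lies 21 bp from that peak, so the peak cannot be assigned to Smc1a alone. Rad21 (chromosome 15, 51962240 to 51991747, minus strand), the subunit that closes the ring, had scores of 138 and 133 (percentiles 97.8 and 96.9) at 104 and 84 bp before the start. In each of these genes the same peak was the strongest in both libraries.

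Rad21 was the member whose promoter peaks held the CTCF letters. Its best peak had 1 match in each library, while the other shared promoter peaks of the members had none, so 1 of 38 (2.63%) held a match. The share over all 30973 shared promoter peaks was 3.50%, so the members lay near that background. A match is a run of letters and does not show that CTCF was bound.

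The alternative ring subunits differed in the layout of their promoters. Stag1 (chromosome 9, 100597798 to 100959375, plus strand) has 14 annotated start sites that fall into 8 groups, when sites within 2 kb of each other are joined. Its outermost start site, a protein-coding one, had no peak in either library. The open promoter lay 45.6 kb inside the annotated gene, at a group of 7 start sites, where the best peak had scores of 146 and 142 (percentiles 99.7 and 99.1) at 77 bp before the start in both libraries. Of the other groups of Stag1, 1 had a peak in replicate 1 only (score 14) and 1 in replicate 2 only (score 12), both among the lowest scores of their libraries. Stag2 (chromosome X, 42149317 to 42277185, plus strand) has 8 start sites in 1 group, spread over about 3 kb.

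At Stag2 the opening was spread over a chain of peaks. Each library had 8 promoter peaks with a partner in the other, the most of the 10 members. The strongest lay 186 bp before the first start, with scores of 110 and 121 (percentiles 89.9 and 93.9). The last, at 2894 bp in replicate 1 and 2854 bp in replicate 2, came next with scores of 101 and 99, and lay at the innermost annotated start site. Shared peaks between them had scores from 27 to 96 over both libraries, and a weak one lay further upstream (29 and 15). The 2 strongest peaks of Stag2 thus stood about 3 kb apart, at either end of its start sites. Its best percentiles were the lowest of the 10, though they were above the median for genes on X with a shared promoter peak (89.25 in replicate 1 and 87.7 in replicate 2). On the autosomes that median was 95.49 and 95.59.

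The loader and the regulators followed the common pattern. Nipbl (chromosome 15, 8290617 to 8444463, minus strand) has a single annotated start site. Its best promoter peak had scores of 143 and 140 (percentiles 99.1 and 98.7), 228 and 248 bp before the start. A second peak of like score, with scores of 144 and 141, lay 1048 bp before the start in both libraries, 48 bp beyond the promoter limit, and was therefore counted as distal. Wapl (chromosome 14, 34673928 to 34747983, plus strand), which releases cohesin, had a best peak with scores of 136 and 138 (percentiles 97.3 and 98.2) at 77 and 57 bp before the start. A long noncoding gene in the opposite direction, 5830448L01Rik, starts 13 bp from that peak.

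The paired regulators Pds5a and Pds5b were alike at their main start and differed further inside. Pds5a (chromosome 5, 65605721 to 65698273, minus strand) had scores of 131 and 143 (percentiles 96.0 and 99.3) at its main start. A further peak 1257 bp inside the gene had scores of 115 and 98. It lay just before another annotated start site of the same group. None of its 7 other groups of start sites had a peak. Pds5b (chromosome 5, 150673739 to 150810690, plus strand) had scores of 132 and 135 (percentiles 96.3 and 97.4). Its peak lay 108 bp before the start in replicate 1 and 12 bp after it in replicate 2, an offset of 120 bp. It also had a weak peak in both libraries near a protein-coding start site 82.6 kb inside, with scores of 36 and 18 (percentiles 30.6 and 12.1).

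Taking all annotated start sites of the 10 genes, 66 in number, 39 groups were formed. A shared peak stood at 11 of them (28.2%), against 36.0% of the groups of all protein-coding genes, and 25 had no peak in either library. Each member had 1 group with strong peaks, and Pds5b was the member with a second shared one. Shared peaks overlap by definition, which keeps their offset under 150 bp. The 38 shared promoter peaks had a median offset of 20 bp, as had all shared peaks, and 14 of 38 (36.8%) had the same position in both libraries, against 30.6% of all.

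The windows of the 10 genes held 206 peaks in replicate 1 and 203 in replicate 2. Of these, 146 (70.9%, 95% Wilson interval 64.3% to 76.7%) in replicate 1 overlapped a peak of replicate 2 by at least 1 bp, and 149 of 203 (73.4%) the other way. The shares over all peaks were 67.1% and 70.2%, and the first lies within that interval, which treats peaks as independent. Promoter peaks in the windows were shared more often (80.6% of 67 in replicate 1, 81.8% of 66 in replicate 2) than distal ones (66.2% of 139 and 69.3% of 137). Over all peaks of replicate 1 these shares were 76.7% at promoters and 64.1% at distal sites. Peaks found in 1 library were weaker, with a median percentile of 19.7 among the 60 of replicate 1 and 13.1 among the 54 of replicate 2.

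**Figure D2:**
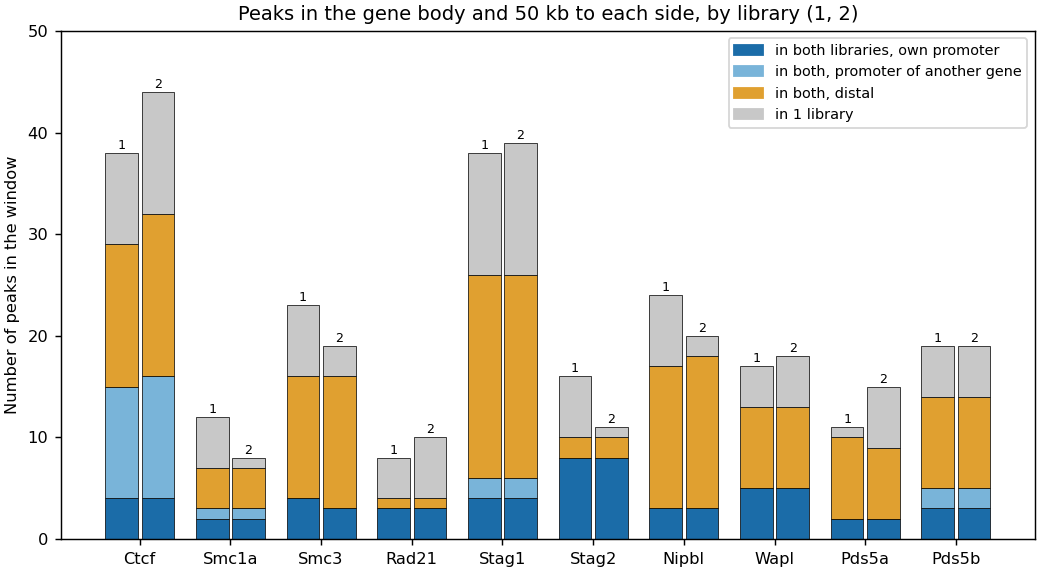
Number of peaks in each window (gene body and 50 kb to each side) by library, with bars marked 1 and 2 for the replicates. Segments show shared peaks at the gene's own promoter, at other promoters and at distal sites, and peaks found in 1 library; Ctcf and Stag1 have the most peaks (38 and 44, 38 and 39) and Rad21 has 8 and 10.

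Of the 5 strongest peaks without a partner in each library, 9 of 10 were at promoters. They were picked by score, and shared peaks at the members' own promoters also ranked above shared distal ones. The median percentiles were 86.6 against 60.8 in replicate 1 and 87.2 against 54.3 in replicate 2. The share of promoters among all peaks of like score was not taken. In replicate 1 the strongest without a partner were a Stag1 peak at 477 bp before the start (score 116), a Nipbl peak 252 bp inside the gene (111) and a Smc3 peak 473 bp inside it (105). In replicate 2 they were a Smc3 peak 313 bp inside the gene (score 121), a peak at 8.35 kb before Pds5b that lies at the promoter of another gene (113) and a Stag1 peak 463 bp inside the gene (107). The next ones in replicate 2 were a Rad21 promoter peak (94) and a peak at another gene's promoter 64.2 kb past the Ctcf start (80). In replicate 1 the next were a peak 72.7 kb before the Stag1 start (score 79), at the promoter of another gene, and an intronic peak 37.8 kb inside Smc3 (62) that held the CTCF letters. The other library had a hotspot at 9 of these 10 peaks, and none at the intronic Smc3 peak. Among all peaks without a partner in the windows, it had one at 12 of 60 for replicate 1 and 20 of 54 for replicate 2. At Smc3 each library thus had a strong peak just inside the gene that did not overlap one of the other.

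Distal peaks varied more between members than promoters did. In replicate 1 the shared distal peaks numbered 20 at Stag1, 14 at Ctcf, 14 at Nipbl, 12 at Smc3, 9 at Pds5b, 8 at Wapl, 8 at Pds5a, 4 at Smc1a, 2 at Stag2 and 1 at Rad21, 92 in all. Replicate 2 gave 95. Window length differs, from 130 kb at Rad21 to 462 kb at Stag1, so the counts were also taken per 100 kb. Ctcf then came first with 9.57 shared distal peaks per 100 kb, more than 79.9% of all protein-coding genes, and Smc3 followed with 8.25 (74.0%). Nipbl had 5.52, Wapl 4.60, Stag1 4.33, Pds5a 4.15, Pds5b 3.8 and Smc1a 2.73. Stag2 with 0.878 and Rad21 with 0.772 were last, above 23.5% and 21.8% of genes. The order depends on the flanks: with 100 kb to each side Smc3 had 44 shared peaks of all kinds and Ctcf 41, where 50 kb gave 16 and 29, and Rad21 went from 4 to 12. The median of the members was 4.24 and that of all protein-coding genes 4.17, so as a group they did not stand apart in distal sites.

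**Figure D3:**
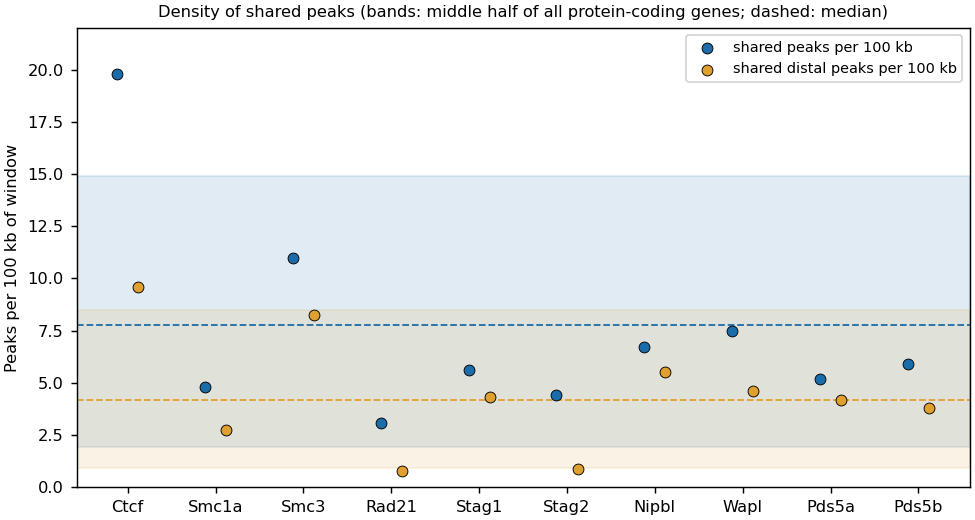
Shared peaks (blue) and shared distal peaks (orange) per 100 kb of window for each gene, on a linear axis from 0. Bands span the middle 50% of all 21911 protein-coding genes and dashed lines their medians; Ctcf lies above the blue band, and Rad21 and Stag2 lie just under the orange one.

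Ctcf lies among other genes, and this shows in its window. It held the promoters of 7 other protein-coding genes, including Acd, which encodes a telomere protein, Pard6a, a cell polarity gene, and Carmil2. Of its 29 shared peaks in replicate 1, 4 were at its own promoter, 11 at promoters of other genes and 14 distal. The windows of the other members held start sites of 0 to 2 other protein-coding genes. The peaks near Ctcf cannot be assigned to it from these data.

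Shared distal peaks were ranked by the lower of their percentiles in the libraries, and 3 of the 5 strongest lay near Ctcf. The first was the Nipbl peak just beyond the promoter limit. The next were at 42.6 kb, 29.9 kb and 14017 bp before the Ctcf start, all in introns, with scores of 124, 123 and 121 in replicate 1 and 128, 123 and 124 in replicate 2. The last was in the first part of the Stag1 gene, 37.1 kb before its open promoter (132 and 105). It lay 8.53 kb inside the outermost annotated start site of Stag1, which itself had no peak.

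Several members had long stretches with no shared peak after the start, and such stretches were not measured over all genes. In Stag1 the longest ran over 231 kb, from 42.5 kb to 274 kb after the open start, and held 6 peaks of replicate 1 and 4 of replicate 2, none of them shared. In Stag2 it was 138 kb, from the last promoter peak to a distal site 141 kb away, with 3 and 1 unshared peaks. Nipbl had one of 102 kb, Wapl 87.3 kb, Pds5a 86.9 kb and Rad21 78.5 kb, the last ending at the edge of its window. At Smc3 and Nipbl, distal peaks stood close together beyond the 3' end. Smc3 had 5 shared ones between 47.8 and 53.9 kb from its start, with scores up to 111 in replicate 1 and 97 in replicate 2. At Nipbl 6 peaks of replicate 1 and 5 of replicate 2 stood at 164 to 165 kb, with scores up to 96 and 97. Some peaks there overlap each other within a library and are counted separately. The only shared distal peak at Rad21 lay 20.4 kb before the gene (scores 50 and 23).

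**Figure D4:**
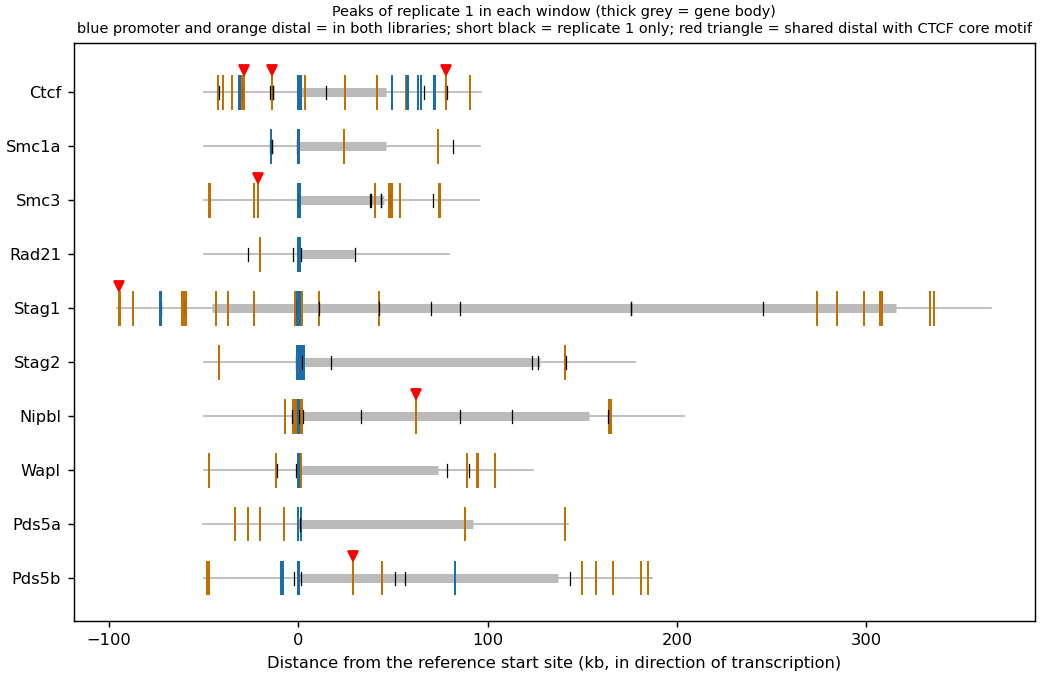
Peaks of replicate 1 along each window in kb from the reference start site, in the direction of transcription, with the gene body as a thick grey line. Tall blue (promoter) and orange (distal) ticks were found in both libraries, short black ticks in replicate 1 only, and red triangles mark shared distal peaks with the CTCF letters; inside Stag1, no tall tick stands between 42.5 and 274 kb.

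Since CTCF stops cohesin at its own motif, the distal peaks of the members were searched on both strands for the core of the CTCF motif, shown in capitals in the lines printed further on. A match was found in 7 of 92 shared distal peaks of replicate 1 (7.61%, 95% Wilson interval 3.73% to 14.9%) and 8 of 95 of replicate 2 (8.42%). The share was 9.72% over all 83249 shared distal peaks and 1.36% in windows 1 kb to their sides, so the members lay near the background of open distal sites. The 7 peaks belonged to 5 members, and 50.9% of all protein-coding genes have at least 1 such peak in their window. Ctcf had 3 of them, and Smc3, Nipbl, Pds5b and Stag1 had 1 each.

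The sequences of 5 of these peaks are printed, because they show the motif within the open site, each on the strand that reads the match forwards and with the match in capitals. They cover chr8:105622476-105622625 and chr8:105607696-105607845 near Ctcf, chr19:53579016-53579165 near Smc3, chr5:150702836-150702985 in Pds5b and chr9:100548436-100548585 near Stag1, on mm10. The second Ctcf peak, the Smc3 peak and the Pds5b peak are on the minus strand.
Ctcf, 14017 bp before the start: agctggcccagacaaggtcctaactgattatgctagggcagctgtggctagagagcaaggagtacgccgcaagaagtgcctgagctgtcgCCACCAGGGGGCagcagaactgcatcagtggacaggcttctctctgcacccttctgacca
Ctcf, 28.8 kb before the start: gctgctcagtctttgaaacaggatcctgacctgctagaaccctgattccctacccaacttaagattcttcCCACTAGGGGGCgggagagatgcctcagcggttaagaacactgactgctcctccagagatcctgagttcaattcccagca
Smc3, 21.3 kb before the start: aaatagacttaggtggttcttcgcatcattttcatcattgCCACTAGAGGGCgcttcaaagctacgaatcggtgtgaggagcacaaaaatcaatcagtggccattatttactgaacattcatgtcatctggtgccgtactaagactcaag
Pds5b, 29.2 kb inside the gene: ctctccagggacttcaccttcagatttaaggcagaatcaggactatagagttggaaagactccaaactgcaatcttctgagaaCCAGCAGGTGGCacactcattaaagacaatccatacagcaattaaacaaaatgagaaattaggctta
Stag1, 94.9 kb before the open start: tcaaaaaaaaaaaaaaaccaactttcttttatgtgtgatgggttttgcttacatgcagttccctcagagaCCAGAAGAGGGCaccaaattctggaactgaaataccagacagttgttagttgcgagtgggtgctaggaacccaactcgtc
All 7 matches lay within 29 bp of the centre of their 150 bp peak, and 5 of 7 within 20 bp. The same shares over all 8088 shared distal peaks with a match were not taken, so whether this is particular to the members is not known. The first Ctcf peak had the highest scores of the set, 121 and 124. The remaining scores were 109 and 88 for the exonic peak 77.8 kb after the Ctcf start, 95 and 73 for Smc3, 76 and 45 for the second Ctcf peak, 62 and 41 for the intronic Nipbl peak, 66 and 34 for Pds5b, and 38 and 17 for Stag1. A stricter, longer form of the motif was present in 5 of the 92 shared distal peaks (5.43%), near the 4.20% of all shared distal peaks. Of the 7 peaks with the core, those at Nipbl and Stag1 lacked it. The Stag1 match was the one that lay in sequence masked as repeat in the RefSeq genome (1 of 7, against 16.8% of 8088 matches overall).

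**Figure D5:**
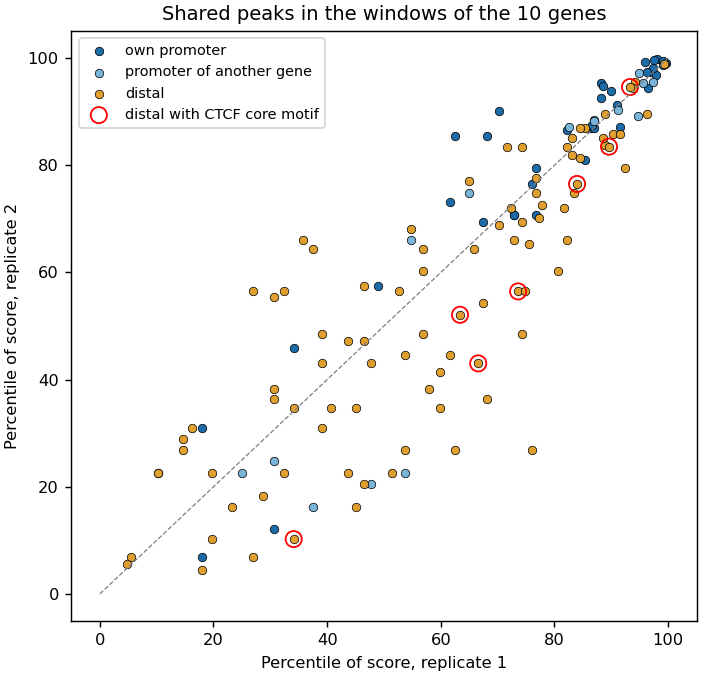
Percentile of score in replicate 1 (x axis) against replicate 2 (y axis) for the 146 shared peaks in the 10 windows, with the dashed line at equal percentile. Peaks at the genes' own promoters gather at the upper right, distal peaks spread over the range, and red circles mark the 7 distal peaks with the CTCF letters.

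Other genes of chromosome structure were taken from a list of 31, and 27 had a promoter peak in both libraries (58.9% of all protein-coding genes). All 5 genes of loading and acetylation had one, among them Mau2, the partner of NIPBL (best percentiles 96.8 and 95.9), and Esco2, which acetylates SMC3 (98.8 and 99.5). Hdac8, which removes that acetyl group, had the lowest percentiles of the list (72.3 and 34.7). A promoter peak in both libraries was also found at 4 of 4 genes of cleavage and protection. Among them were Espl1, which encodes separase (97.3 and 95.6), and Sgo1, the protector of centromeric cohesin (98.4 and 98.9). Condensin had 8 of 8, with Smc4 at 99.7 and 99.8 and Ncapd2 at 99.8 and 99.5, and the SMC5/6 complex 4 of 4, with Smc6 at 99.3 and 98.4. Factors found at loop anchors had 5 of 5, with Yy1 at 99.3 and 98.9 and Zfp143, the mouse gene of ZNF143, at 99.3 in both.

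The genes of the list without a promoter peak in both libraries were germ line forms. Smc1b and Rad21l, the meiotic counterparts of Smc1a and Rad21, had none in either library, and neither had Ctcfl, the testis paralog of Ctcf. Stag3, the meiotic counterpart of Stag1 and Stag2, had 1 promoter peak in replicate 2 and none in replicate 1. Rec8, the remaining meiotic subunit, had promoter peaks in both libraries (4 and 3, best percentiles 97.8 and 96.1). So 1 of 4 meiotic subunits and 0 of 1 CTCF paralogs had an open promoter in both, where 26 of 26 other genes of the list did. No test was made of this difference.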

How the data were processed

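DNase-seq peaks and hotspots of 2 MN1 libraries were used, 1 group with replicates 1 and 2 as numbered in the labels. Per the notes deposited with the files, the authors made each list from filtered alignments to mm10, 1 library at a time and without pooling. Which aligner, peak caller and threshold they used is not stated in those sources or the labels. Since the deposited peak score (1 to 150) has no stated scale, it served only for ranks inside 1 list. The deposited hotspot value is the −log10 of a q-value, capped at 100. No read counts were given, so depth is unknown.

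Repeated entries (43 and 20) were removed, and the 19 autosomes, X and Y were kept. Genes came from GENCODE M21 (21911 symbols). Peaks were placed by their centre, and shared peaks overlapped by 1 bp. A percentile is the mid-rank within a list. Motifs were matched as letters to the RefSeq GRCm38.p6 genome and promoter table. Functions were tested on simulated intervals and planted motifs. Python 3.11.15, NumPy 2.4.6, SciPy 1.17.1 and Matplotlib 3.10.9 were used.

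With 1 condition and 2 libraries no test between groups was possible, so members are described by counts beside all genes or peaks. The 10 members, the list of 31 genes and the motifs were chosen with earlier results of these data known, and the printed sequences after the motif matches were seen. Named were all members, genes of the list without a promoter peak in both libraries with examples of each class, the best promoter peak per member, the 5 strongest shared distal peaks, up to 10 shared distal peaks with the CTCF motif and the 5 strongest single-library peaks per library.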

Additional observations from a re-analysis of the deposited data

How the results depend on the processing

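A promoter peak in both libraries was found at 9 of 10 members when the outermost start site alone was used, with Stag1 as the exception, and the count for the wider list was 26 to 28 under the settings tried. The share of peaks in both libraries, 70.9%, was 63.6% when the overlap had to cover 50% of each peak and 80.9% in the upper 50% of each score list. Shared distal peaks, 92 in all, numbered 153 with flanks of 100 kb and 45 in the upper 50% of each score list, and single libraries gave 137 to 139 distal peaks. Peaks with the CTCF letters, 7 in all, numbered 4 with flanks of 25 kb and 12 with 100 kb. The cause of these changes was not tested. A count was taken as unchanged within 1.5 times of its value and a share within its 95% Wilson interval, which held for 34 of 41 settings of the summary values and 26 of 40 of single members. With flanks of 100 kb the shared peaks went from 16 to 44 at Smc3, 10 to 26 at Pds5a, 7 to 17 at Smc1a, 4 to 12 at Rad21 and 14 to 22 at Pds5b. The setting with a 1 bp overlap at promoters was chosen after seeing the data. Sharing has no value without one of the libraries. No paired analysis was possible because there is 1 group. Depth is unknown, so a missing peak does not show closed DNA.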

Other observations

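Shared distal peaks with the CTCF letters tended to rank lower in replicate 2 than in replicate 1. This held for 6 of 7 in the windows of the 10 genes, with a median difference of -11.3 percentile points, and 49 of the 85 without a match (57.6%) ranked lower (median -3.02). It held for 5735 of 8088 (70.9%) over all shared distal peaks with a match (median -4.03). Shared distal peaks without a match ranked lower in replicate 2 in 59.5% of 75161 cases (median -2.24). Percentiles come from lists of different length, the peaks of a library are not replicates, and the difference was not tested.

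Genes on chromosome X had fewer shared peaks than those on autosomes, with a median of 1.92 against 8.19 per 100 kb of window, and 41.9% of 948 had a promoter peak in both libraries against 60.2% of 20780. Smc1a and Stag2, with 4.79 and 4.39 shared peaks per 100 kb, were above the median for X and below that for the autosomes. No test was made of these differences.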
